A study of Mus musculus with 6 samples.

Results

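The drug-metabolizing cytochrome P450 (P450) genes of families 1 to 3 were followed in the livers of *Pak4* LKO and WT mice. They were taken as the protein-coding genes whose symbol names the *Cyp1a*, *Cyp2a*, *Cyp2b*, *Cyp2c*, *Cyp2d*, *Cyp2e*, *Cyp2f*, *Cyp2g*, *Cyp2j* or *Cyp3a* subfamily and ends in its number, which gave 51 of the 45777 genes in the deposited table. Both groups were C57BL/6 male mice with floxed alleles of *Pak4* (*Pak4* flox/flox), 8 weeks old and fasted for 24 h, with 3 mice and 1 liver library per mouse in each. LKO mice carried Alb-Cre in addition, so that Cre recombinase made from the albumin promoter deletes *Pak4* in hepatocytes, and WT mice were their littermates without Cre. The Cre was thus present in 1 group only, and its own effect and that of the deletion cannot be told apart.

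P450s are haem enzymes of the endoplasmic reticulum that add oxygen to drugs, pollutants, steroids, bile acids and fatty acids, with electrons handed on from NADPH by P450 oxidoreductase and cytochrome b5. In hepatocytes their genes are switched on by liver factors such as HNF4α and C/EBPα and by receptors that sense foreign compounds. The aryl hydrocarbon receptor (AHR, gene *Ahr*) is known for the *Cyp1a* genes, the constitutive androstane receptor (CAR, gene *Nr1i3*) for the *Cyp2b* genes and the pregnane X receptor (PXR, gene *Nr1i2*) for the *Cyp3a* genes. Many members lie in tandem clusters of near-identical copies, and several differ between male and female mice.

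The comparison asked which of these genes differ between LKO and WT livers after fasting. With TMM scaling, 12 of the 40 members that could be tested were called higher in LKO mice (30%, against 19.6% of all 18636 genes tested) and 10 were called lower (25%, against 20.5% of all genes). The rises lay in the *Cyp2b*, *Cyp2c* and *Cyp3a* subfamilies and reached a log2 fold change of 2.70 for *Cyp2b10*, 2.64 for *Cyp3a13* and 2.55 for *Cyp2c54*. The falls lay in the *Cyp1a*, *Cyp2c*, *Cyp2d* and *Cyp2f* subfamilies and reached −4.50 for *Cyp2c55*, −2.64 for *Cyp2c70* and −2.15 for *Cyp2c23*. A call is an adjusted p under 0.05 in the quasi-likelihood test of edgeR, adjusted after Benjamini and Hochberg over the 18636 genes, and every log2 fold change is LKO over WT with its standard error (SE). The other 11 members had more than 1 zero count among the 6 mice and were not tested.

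The WT libraries held 45934632 to 55205564 counts and the LKO libraries 53936281 to 59576437, with overlap (p = 0.3 in a two-sided exact permutation test, whose smallest possible p here is 0.1). Their TMM factors ranged from 1.28 to 1.43 for WT mice and from 0.639 to 0.816 for LKO mice. When total counts replaced TMM, the median log2 fold change of all genes moved from −0.04 to −0.90 and that of the members from 0.44 to −0.43. On that scale 6 members were called higher, against 6.26% of all genes, and 18 lower, against 51.4% of all genes. Of the 22 members called with TMM, 20 kept their direction with total counts and 16 were still called. The directions below are therefore relative to the other genes of the same liver. Levels are given as CPM (read counts scaled by TMM to a common library size) for 1 gene across mice and as TPM (relative transcript number, which the authors scaled for gene length) between genes. In bulk liver, fewer cells of a type and less RNA per cell cannot be told apart.

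Read counts of *Pak4*, the deleted gene, were 268, 210 and 271 in WT mice against 85, 52 and 149 in LKO mice. On the TPM scale *Pak4* was at 2.44 ± 0.141 TPM in WT mice against 0.522 ± 0.295 TPM in LKO mice (means with SD, n = 3 each), with no overlap (p = 0.1, exact permutation test, two-sided). After TMM scaling its log2 fold change was −0.71 ± 0.31 (SE, adjusted p = 0.101), and LKO mouse 3 lay within the WT range at 3.22 CPM. Without LKO mouse 3 the log2 fold change was −1.08 and was called. The labels were kept as given.

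Of the members that mark hepatocytes, *Cyp3a11* was at 8873 ± 922 TPM in WT mice against 4453 ± 401 TPM in LKO mice (means with SD, n = 3 each), *Cyp2e1* at 2252 ± 86.5 and 1095 ± 123 TPM and *Cyp2b10* at 12.5 ± 9.91 and 29.3 ± 34.2 TPM. *Cyp3a11* and *Cyp2e1* were abundant in every library, as the label of liver has it, whereas *Cyp2b10* was low. TPM are not TMM-scaled. The median log2 fold change of all genes was −0.79 on log2(TPM + 1). The added 1 shrinks the differences of low genes, so that this median is no reference for abundant genes. *Cyp3a11*, the main CYP3A enzyme of adult mouse liver, was the most abundant member in both genotypes, with 45.8% ± 1.78 of the summed TPM of all 51 members in WT mice and 48.7% ± 4.37 in LKO mice (means with SD, n = 3 each). *Cyp2e1*, known for the oxidation of ethanol and acetone, came next with 11.7% ± 0.552 and 12.0% ± 1.22. The shares of both overlapped between genotypes. These shares are taken within a library and do not depend on the scaling factor between libraries.

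Beside these shares the make-up of the rest of the pool differed. The *Cyp3a* subfamily took 50.9% ± 1.40 of the summed TPM in WT mice and 60.1% ± 4.46 in LKO mice, and the values did not overlap. *Cyp3a25* moved from 3.71% ± 0.659 to 7.78% ± 0.381 and from rank 6 to rank 3 among the members. The *Cyp2d* subfamily went from 10.9% ± 0.765 to 5.84% ± 1.21, the *Cyp2f* subfamily (*Cyp2f2* alone) from 2.01% ± 0.464 to 0.357% ± 0.0965 and the *Cyp1a* subfamily from 0.337% ± 0.106 to 0.0860% ± 0.0223, all without overlap. The *Cyp2j* share, from 2.27% ± 0.0676 to 1.94% ± 0.245, did not overlap either, and was 4.105% ± 0.137 and 3.41% ± 0.395 when taken over read counts, which are not scaled for gene length. The *Cyp2a*, *Cyp2b*, *Cyp2c* and *Cyp2e* shares overlapped, although single *Cyp2c* genes changed places. *Cyp2c29*, the most abundant *Cyp2c* gene of WT mice, went from 4.21% ± 0.446 to 0.945% ± 0.0834, *Cyp2c70* from 3.07% ± 0.342 to 0.349% ± 0.173 and *Cyp2c50* from 1.33% ± 0.0612 to 3.04% ± 1.07. No test was run on the shares. All members together held 2.39% to 2.81% of the read counts in WT mice against 1.89% to 2.13% in LKO mice. After TMM scaling their sum was 17862 to 20809 CPM in WT mice against 24121 to 33393 CPM in LKO mice. The direction of the whole pool thus turned with the scaling.

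**Figure D1:**
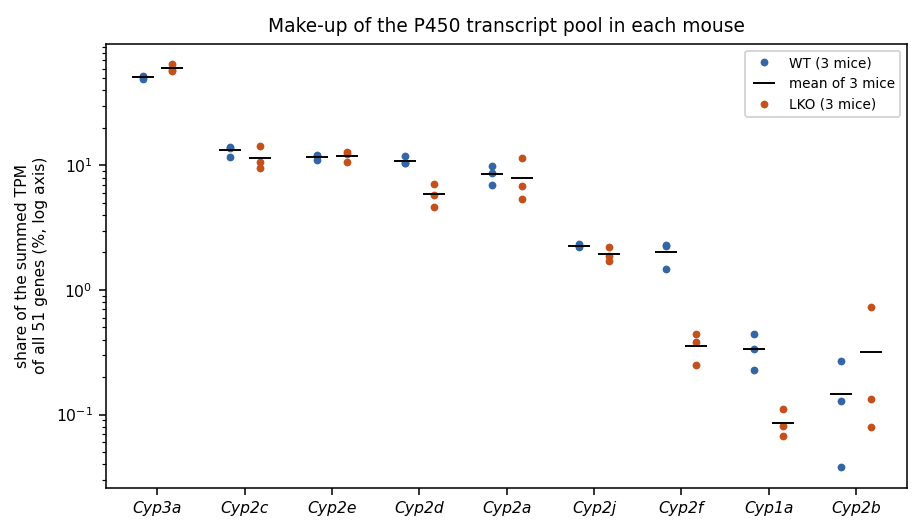
Share of each subfamily in the summed TPM of the 51 members (percent, log axis) for each WT mouse (blue) and LKO mouse (red), with black dashes at the mean of 3 mice. The *Cyp3a* share was higher in every LKO mouse than in any WT mouse (means 60.1% and 50.9%) and the *Cyp2d*, *Cyp2f* and *Cyp1a* shares were lower, and *Cyp2g*, at under 0.00466%, is left out.

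In the *Cyp3a* subfamily, 5 of 6 tested members were called higher and none lower with TMM, against 19.6% and 20.5% of all genes. With total counts 2 were called higher and none lower, against 6.26% and 51.4% of all genes. *Cyp3a11*, *Cyp3a44* and *Cyp3a59* were called lower by limma on log2(TPM + 1), a scale on which the median of all genes was −0.79. *Cyp3a11* was at 10074, 8977 and 8703 CPM in WT mice against 11630.2, 18409 and 11608 CPM in LKO mice. All LKO mice lay above all WT mice, LKO mouse 2 farthest, yet the log2 fold change of 0.59 ± 0.31 (SE, adjusted p = 0.169) was not called. It was −0.31 with total counts. *Cyp3a25* was at 921, 551 and 750.3 CPM in WT mice against 1970.5, 2456 and 1966 CPM in LKO mice, with no overlap. The difference on the log2 scale was 1.52 ± 0.25 (SE, adjusted p = 0.00208).

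*Cyp3a13*, the one *Cyp3a* gene that lies apart from the cluster on chromosome 5, rose most. It was at 164, 172 and 164 CPM in WT mice against 839, 1459 and 830.1 CPM in LKO mice. The WT values lay close together and every LKO value was several times higher. Its log2 fold change was 2.64 ± 0.26 (SE, adjusted p = 0.000341), and 1.74 with total counts. *Cyp3a16*, known as a fetal and neonatal gene, was at 3.42, 3.39 and 2.75 CPM in WT mice against 5.84, 31.5 and 4.995 CPM in LKO mice. LKO mouse 2 stood far above the other LKO mice. The log2 fold change was 2.14 ± 0.66 (SE, adjusted p = 0.0314), was 0.76 without LKO mouse 2 (still called), and was no longer called without WT mouse 1 (2.18, adjusted p = 0.0768), WT mouse 2 (2.14, adjusted p = 0.0888) or WT mouse 3 (2.02, adjusted p = 0.0943). *Cyp3a44*, which is female-predominant, and *Cyp3a59* were called higher (0.88 ± 0.19, adjusted p = 0.00767 and 0.87 ± 0.21, adjusted p = 0.0119) and were at −0.013 and −0.017 with total counts. *Cyp3a57* was not tested, with read counts of 7, 0 and 0 in WT mice against 8, 10 and 15 in LKO mice. *Cyp3a25* and *Cyp3a59* share 97.48% of their coding bases, so that reads could be split between them, and their single values are uncertain. *Cyp3a11* and *Cyp3a44* share 94.91%, and *Cyp3a11* was far more abundant (means of 9251 and 87.1 CPM in WT mice). The value of *Cyp3a44* may therefore hold reads of *Cyp3a11*.

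Sequences before the gene starts are shown for the members that hold the motif CAAAGTCCA, the form in which HNF4 sites are often written. The promoters span 250 bases before to 50 bases after the start (RefSeq, GRCm38.p6), and 45 of the 51 members matched. The motif was searched on both strands and was found in 8 of the 45 members (17.8%), against 0.475% of all 32851 promoters. For each motif, a member counts if any of its promoters matches, whereas the background counts single promoters. In each member it lies on the strand of the gene, shown in capitals within 45 bases.
Cyp2c40: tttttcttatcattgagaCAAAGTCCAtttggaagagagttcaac
Cyp2c65: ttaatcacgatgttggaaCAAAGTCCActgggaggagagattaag
Cyp2c67: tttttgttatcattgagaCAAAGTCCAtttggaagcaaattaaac
Cyp2c68: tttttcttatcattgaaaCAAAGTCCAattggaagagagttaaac
Cyp2c69: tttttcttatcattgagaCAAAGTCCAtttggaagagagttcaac
Cyp2c70: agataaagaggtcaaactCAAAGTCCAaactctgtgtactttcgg
Cyp3a11: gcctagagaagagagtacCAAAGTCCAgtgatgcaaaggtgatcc
Cyp3a16: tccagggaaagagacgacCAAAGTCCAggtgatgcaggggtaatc

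These stretches lie at chr19:39812833-39812877 (minus strand), chr19:39060872-39060916 (plus strand), chr19:39649141-39649185 (minus strand), chr19:39741152-39741196 (minus strand), chr19:39886818-39886862 (minus strand), chr19:40187324-40187368 (minus strand), chr5:145879937-145879981 (minus strand) and chr5:145469796-145469840 (minus strand), in the order shown. The motif starts between 45 bases (*Cyp2c40*) and 125 bases (*Cyp2c67*) before the gene start. Of the 8 genes, 3 were called higher (*Cyp2c40*, *Cyp2c68* and *Cyp3a16*), *Cyp2c70* was called lower, 3 were not called and *Cyp2c65* was not tested. Genes with this motif thus went both ways. *Hnf4a* itself was not called. Other motifs searched on both strands were AGGTCA, a half-site of nuclear receptors (37.8% of members against 16.3% of promoters), TTGCNNAA, bound by C/EBP factors (31.1% against 10.8%), GCGTG, the core bound by AHR (13.3% against 32.4%) and TATAAA, the TATA box (57.8% against 13.6%). Members of a cluster are copies of one another and do not count as separate sequences. A match is a description of the letters.

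The *Cyp2c* subfamily was divided, with 6 of 13 tested members called higher and 4 lower, against 19.6% and 20.5% of all genes. With total counts it was 4 higher and 5 lower, against 6.26% and 51.4% of all genes. *Cyp2c29*, a CAR-inducible enzyme that oxidizes retinoids and arachidonic acid, was at 881, 687 and 639 CPM in WT mice against 221, 277 and 187 CPM in LKO mice. Every LKO value was less than every WT value, and the log2 fold change was −1.69 ± 0.22 (SE, adjusted p = 0.000777). *Cyp2c70* makes muricholic acids, the bile acids that mice have and humans lack. It was at 584, 518 and 438 CPM in WT mice against 32.8, 109 and 105 CPM in LKO mice, with LKO mouse 1 the lowest of the 6. Its log2 fold change was −2.64 ± 0.42 (SE, adjusted p = 0.00184).

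*Cyp2c55*, an arachidonic acid hydroxylase that is known to respond to CAR and PXR, showed the largest fall among the tested members. It was at 18.5, 16.7 and 14.9 CPM in WT mice against 0.682, 0.459 and 1.04 CPM in LKO mice. Its level was thus near the lower end of what was counted in LKO mice, with read counts of 1382, 1094 and 983 in WT mice against 30, 16 and 48 in LKO mice. The log2 fold change was −4.50 ± 0.29 (SE, adjusted p = 0.000168). *Cyp2c23*, an arachidonic acid epoxygenase, lies outside the main cluster, at chr19:44005022-44029256. It was at 49.4, 106 and 96.9 CPM in WT mice against 22.7, 16.3 and 17.7 CPM in LKO mice. No LKO value reached the lowest WT value, that of WT mouse 1, and the log2 fold change was −2.15 ± 0.29 (SE, adjusted p = 0.000909).

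The genes that rose lie between *Cyp2c29* and *Cyp2c70* on the chromosome. *Cyp2c54* and *Cyp2c37* encode oxidases of arachidonic and linoleic acid. *Cyp2c54* was at 84.0, 56.7 and 51.9 CPM in WT mice against 416, 456 and 256 CPM in LKO mice. No values overlapped, and the log2 fold change was 2.55 ± 0.28 (SE, adjusted p = 0.000449). *Cyp2c37* was at 178, 121 and 82.2 CPM in WT mice against 484, 411 and 348 CPM in LKO mice, and its log2 fold change was 1.71 ± 0.29 (SE, adjusted p = 0.00230). *Cyp2c50* (1.67 ± 0.29, adjusted p = 0.00259), *Cyp2c39* (1.63 ± 0.26, adjusted p = 0.00185) and *Cyp2c68* (1.43 ± 0.21, adjusted p = 0.00133) were also called higher without overlap, of which *Cyp2c68* was not called with total counts (0.57, adjusted p = 0.0578 in edgeR's quasi-likelihood test). *Cyp2c40* (1.26 ± 0.31, adjusted p = 0.0133) was not called with total counts (0.41), without WT mouse 2 (1.16, adjusted p = 0.0614) or without WT mouse 3 (1.09, adjusted p = 0.0607). The values of *Cyp2c38* (0.68 ± 0.29, adjusted p = 0.0955), *Cyp2c67* (0.14 ± 0.19, adjusted p = 0.585) and *Cyp2c69* (0.67 ± 0.33, adjusted p = 0.145) overlapped and were not called, and *Cyp2c69* was called without LKO mouse 3 (0.95, adjusted p = 0.0272).

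*Cyp2c65* was detected in WT mice alone, with read counts of 16, 19 and 14 in WT mice against 0, 0 and 0 in LKO mice. Against a floor of 3 counts over the group, which takes counts as independent reads, it was at least 9.92-fold lower in LKO mice after TMM scaling. *Cyp2c66* had no count in any mouse. *Cyp2c37*, *Cyp2c50* and *Cyp2c54* share 95.10% to 96.12% of their coding bases, and *Cyp2c67*, *Cyp2c68* and *Cyp2c69* share 96.54% to 97.69%. *Cyp2c65* and *Cyp2c66* share 96.33%. RefSeq places *Cyp2c38* (chr19:39389556-39463103) inside the interval of *Cyp2c39* (chr19:39347346-39569568). Reads of these genes could be assigned to one another.

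The calls of the *Cyp2c* genes can also be read along the chromosome. In chr19:39006940-40187286, which holds 14 *Cyp2c* genes, *Cyp2c55* at one end, *Cyp2c29* near it and *Cyp2c70* at the other end were called lower. All 6 genes called higher lie between *Cyp2c29* and *Cyp2c70*. As a measure that no scaling between libraries moves, the TPM of *Cyp2c54* was divided by that of *Cyp2c29* in each mouse, a pair chosen after the values were seen. This ratio was 0.0967, 0.0839 and 0.0824 in WT mice against 1.91, 1.67 and 1.39 in LKO mice. *Cyp2c54* was the lesser of the pair in all WT mice and the greater in all LKO mice.

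**Figure D2:**
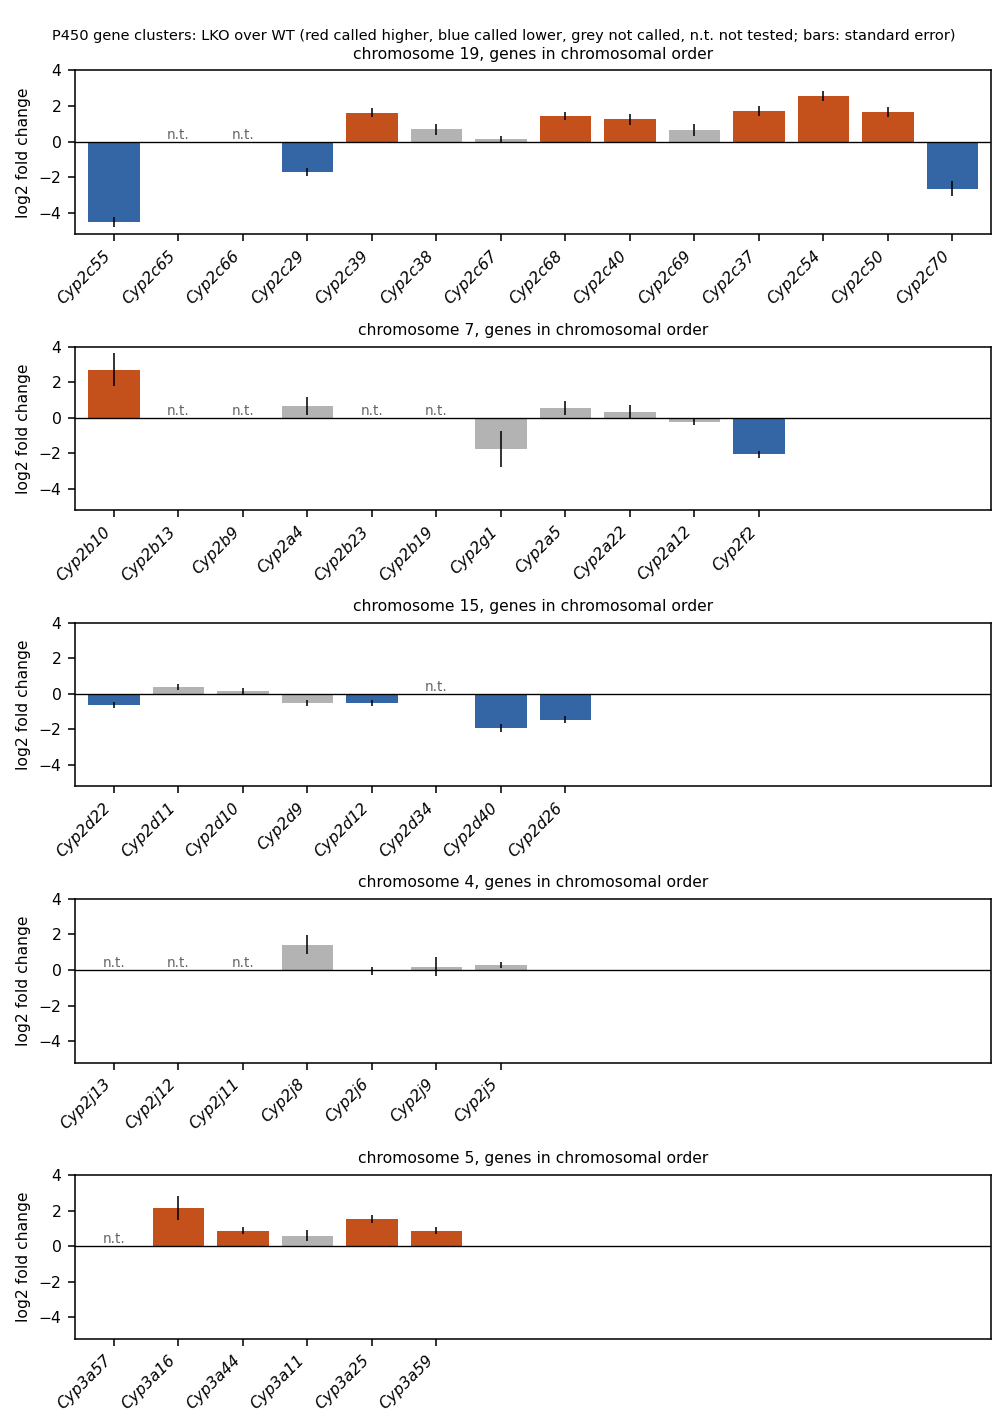
Log2 fold change of LKO over WT with TMM scaling (bars, with SE) for the genes of the 5 clusters with at least 6 members, in chromosomal order and not to distance, with red for genes called higher, blue for genes called lower, grey for genes not called and n.t. for genes not tested. In the cluster of chromosome 19 the genes called higher lie between *Cyp2c29* and *Cyp2c70*, both called lower, while 4 genes of the cluster on chromosome 15 were called lower and 4 of that on chromosome 5 higher.

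In the *Cyp2b* subfamily, *Cyp2b10*, the gene by which CAR activity is usually read, was at 21.1, 11.8 and 2.25 CPM in WT mice against 17.8, 42.1 and 169 CPM in LKO mice. The values spread widely within both genotypes, LKO mouse 1 lay within the WT range, and LKO mouse 3 stood far above the rest. Its log2 fold change was 2.70 ± 0.93 (SE, adjusted p = 0.0478). *Cyp2b10* was the only one of the 22 called members whose values overlapped between genotypes, and the call was lost without WT mouse 2 (2.67, adjusted p = 0.133), WT mouse 3 (2.20, adjusted p = 0.101), LKO mouse 2 (2.99, adjusted p = 0.0746) or LKO mouse 3 (1.35, adjusted p = 0.199). Without WT mouse 1 it was 3.46 and called. With total counts it was 1.84 and not called.

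*Cyp2b9* and *Cyp2b13*, a pair of female-predominant genes beside *Cyp2b10*, went the other way. Read counts of *Cyp2b9* were 2363, 627 and 280 in WT mice against 0, 0 and 3 in LKO mice. WT mice had 3270 counts in all and LKO mice 3. Per library size scaled by TMM, the level was 662-fold higher in WT mice (95% counting interval 226 to 3210). Read counts of *Cyp2b13* were 142, 57 and 29 in WT mice against 14, 0 and 0 in LKO mice. The ratio on the same TMM scale was 9.89 (95% counting interval 5.77 to 18.4). Both intervals cover counting error only and take counts as independent reads. Since the counts were derived from coverage, the intervals may be too narrow even for counting error. Both genes were left out of the main test for their zeros, and with no filter on low counts edgeR's quasi-likelihood test gave adjusted p = 0.000356 for *Cyp2b9* and 0.0403 for *Cyp2b13*, both called lower. Their levels varied among WT mice too, in which *Cyp2b9*, *Cyp2b13* and *Cyp2b10* were each highest in WT mouse 1 and lowest in WT mouse 3. *Cyp2b19* and *Cyp2b23* had no count in any mouse.

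The sequences at the C/EBP-type motif TTGCNNAA of *Cyp2b10* are shown beside those of its neighbours *Cyp2b9* and *Cyp2b13* as a description of the letters. Whether they bear on the levels was not tested. The motif starts 58 bases before the start of *Cyp2b10* and is in capitals, and the neighbours are shown over the 30 bases that match it best without gaps.
Cyp2b10: aacagctgaagTTGCATAActgagtggaga
Cyp2b9: aacagttggagttgtataacctagtgggga
Cyp2b13: aacagttggagttgtataacctagtgggga

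They lie at chr7:25897589-25897618 (plus strand), chr7:26173339-26173368 (plus strand) and chr7:26061425-26061454 (plus strand) (RefSeq, GRCm38.p6). *Cyp2b9* and *Cyp2b13* were the same over these 30 bases and matched *Cyp2b10* at 24 of 30. Within the motif, the 1 substitution from *Cyp2b10* to each neighbour was C4T, counted from 1 at the first base of the motif. Over the whole 300-base window *Cyp2b9* and *Cyp2b13* shared 99.33% of bases with each other and 70.10% with *Cyp2b10*, and both hold a TTGCNNAA elsewhere in that window. Their coding bases were 92.74% identical with each other, and *Cyp2b9* and *Cyp2b10* were 86.20% identical.

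The *Cyp2d* subfamily, which lies on chromosome 15, was called in 1 direction. With TMM, 4 of 7 tested members were called lower and none higher, against 20.5% and 19.6% of all genes. With total counts all 7 were called lower, as were 51.4% of all genes. *Cyp2d9*, a male-predominant testosterone hydroxylase and the most abundant member of the subfamily, was at 906, 784 and 985 CPM in WT mice against 688, 598 and 585 CPM in LKO mice. No values overlapped, but the log2 fold change of −0.52 ± 0.18 (SE, adjusted p = 0.0526) was just short of a call, and it was called by exactTest (adjusted p = 0.0330) and DESeq2 (adjusted p = 0.0217). *Cyp2d10* was at 475, 375 and 464 CPM in WT mice against 503, 504 and 438 CPM in LKO mice, with overlap, and its log2 fold change was 0.14 ± 0.17 (SE, adjusted p = 0.561). It was −0.72 with total counts.

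*Cyp2d40* and *Cyp2d26*, the last genes of the cluster in chromosomal order, fell most. *Cyp2d40* was at 28.1, 25.0 and 31.2 CPM in WT mice against 9.59, 5.96 and 6.53 CPM in LKO mice, with a log2 fold change of −1.93 ± 0.21 (SE, adjusted p = 0.000431). *Cyp2d26* (−1.46 ± 0.19, adjusted p = 0.000823) did not overlap either. *Cyp2d22* (−0.61 ± 0.16, adjusted p = 0.0167) was not called without WT mouse 1 (−0.59, adjusted p = 0.0640), WT mouse 3 (−0.57, adjusted p = 0.0742) or LKO mouse 2 (−0.54, adjusted p = 0.0573). *Cyp2d12* (−0.53 ± 0.18, adjusted p = 0.0442) was not called without WT mouse 1 (−0.49, adjusted p = 0.134), WT mouse 3 (−0.46, adjusted p = 0.151), LKO mouse 2 (−0.51, adjusted p = 0.104) or LKO mouse 3 (−0.46, adjusted p = 0.0924), nor by DESeq2. *Cyp2d11* (0.38 ± 0.17, adjusted p = 0.111) was higher in every LKO mouse than in any WT mouse without being called, and was called lower with total counts (−0.49). *Cyp2d34* was not tested, with read counts of 0, 8 and 14 in WT mice against 0, 9 and 0 in LKO mice. *Cyp2d10* and *Cyp2d11* share 94.71% of their coding bases, and *Cyp2d9* and *Cyp2d12* share 92.13%. The low *Cyp2d11* and *Cyp2d12* may therefore hold reads of their abundant copies.

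*Cyp2f2*, best known for activating naphthalene in lung and a periportal gene in liver, was at 289, 383 and 397 CPM in WT mice against 84.4, 76.2 and 98.6 CPM in LKO mice. The genotypes were well apart, and the log2 fold change was −2.04 ± 0.19 (SE, adjusted p = 0.000307). *Cyp1a2*, an AHR target that oxidizes caffeine and aromatic amines, was at 68.4, 39.7 and 80.0 CPM in WT mice against 25.2, 24.8 and 14.9 CPM in LKO mice, again without overlap. The log2 fold change was −1.54 ± 0.30 (SE, adjusted p = 0.00436). *Cyp1a1*, the AHR target that is nearly silent in liver until induced, was at 0.523, 0.245 and 0.529 CPM in WT mice against 0.295, 1.00 and 1.06 CPM in LKO mice. Its values overlapped, and the log2 fold change was 0.85 ± 0.54 (SE, adjusted p = 0.243), or −0.026 with total counts. *Cyp2g1*, a gene of the olfactory mucosa, was at 0.107, 0.260 and 0.832 CPM in WT mice against 0, 0.258 and 0.108 CPM in LKO mice, from 0 to 55 reads per mouse, and its log2 fold change was −1.75 ± 1.03 (SE, adjusted p = 0.210). It was called lower with total counts (−2.63).

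*Cyp2e1* was at 2089.7, 1913 and 2054 CPM in WT mice against 2666, 3113 and 2803 CPM in LKO mice. All LKO mice lay above all WT mice, and the log2 fold change of 0.50 ± 0.21 (SE, adjusted p = 0.0832) was not called by edgeR's quasi-likelihood test, while exactTest (adjusted p = 0.0338) and DESeq2 (adjusted p = 0.00439) called it higher. With total counts it was −0.37 and not called, and by limma on log2(TPM + 1) it was −1.04 and called lower. The direction of *Cyp2e1* thus turned with the scaling. The ratio of the TPM of *Cyp2e1* to that of *Cyp2f2* in the same mouse, a pair chosen after the values were seen, was 7.48, 5.16 and 5.34 in WT mice against 32.6, 42.2 and 29.4 in LKO mice.

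None of the 4 tested *Cyp2a* members was called with TMM, and *Cyp2a12* was called lower with total counts (−1.10). *Cyp2a5*, the coumarin hydroxylase of mouse liver, was at 1003, 651 and 1120.4 CPM in WT mice against 610.1, 1441 and 1987 CPM in LKO mice. LKO mice spanned a wider range than WT mice on both sides, and the log2 fold change was 0.54 ± 0.41 (SE, adjusted p = 0.325). Without LKO mouse 1 it was 0.89 and called (adjusted p = 0.0499). *Cyp2a12*, a testosterone hydroxylase, was at 451, 406 and 456 CPM in WT mice against 391, 406 and 324 CPM in LKO mice, with a log2 fold change of −0.23 ± 0.17 (SE, adjusted p = 0.311). *Cyp2a4*, another testosterone hydroxylase, had a log2 fold change of 0.67 ± 0.50, adjusted p = 0.324, and without WT mouse 1, the highest of the 6 at 122 CPM, of 1.67 (called, adjusted p = 0.00268). *Cyp2a22* stood at 0.34 ± 0.37, adjusted p = 0.501. *Cyp2a4* and *Cyp2a5* share 98.45% of their coding bases and *Cyp2a12* and *Cyp2a22* 96.95%, so that their single values are uncertain.

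None of the 4 tested *Cyp2j* members, which belong to a family known for epoxidation of arachidonic acid, was called with TMM. With total counts 2 were called lower, as were 51.4% of all genes. *Cyp2j5* was at 699.6, 588 and 656 CPM in WT mice against 819, 851 and 688 CPM in LKO mice, with a log2 fold change of 0.28 ± 0.18 (SE, adjusted p = 0.253). *Cyp2j6* was at 138, 119 and 125 CPM in WT mice against 86.0, 152 and 129 CPM in LKO mice, with a log2 fold change of −0.05 ± 0.21 (SE, adjusted p = 0.860). Both overlapped between genotypes. *Cyp2j8* (1.43 ± 0.53, adjusted p = 0.0635) rested on 6 to 15 reads per mouse, was called by exactTest (adjusted p = 0.0464) and was called without LKO mouse 3 (1.79, adjusted p = 0.0274). *Cyp2j9* stood at 0.18 ± 0.53, adjusted p = 0.812. *Cyp2j11*, *Cyp2j12* and *Cyp2j13* had no count in any mouse.

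**Figure D3:**
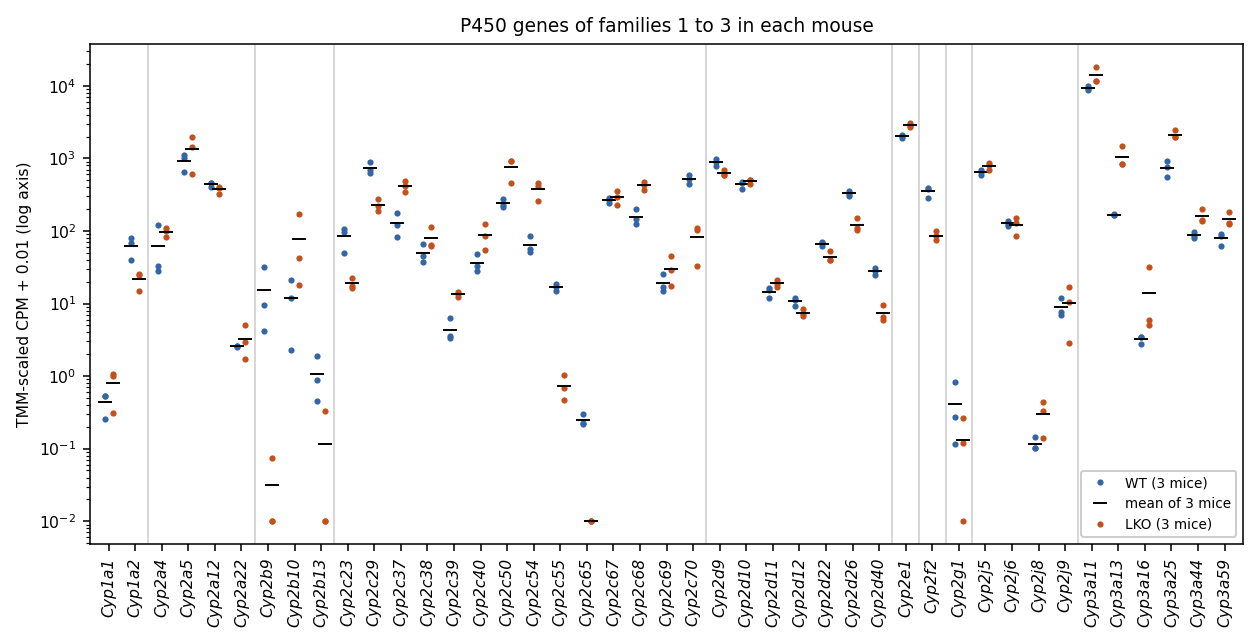
TMM-scaled CPM plus 0.01 (log axis) of the 40 tested members and of *Cyp2b9*, *Cyp2b13* and *Cyp2c65* in each WT mouse (blue) and LKO mouse (red), with black dashes at the mean of 3 mice and grey lines between subfamilies. *Cyp2b9* and *Cyp2b13* lie near the bottom in LKO mice (0 to 0.0649 and 0 to 0.318 CPM) while *Cyp2b10* spreads from 2.25 to 169 CPM over the 6 mice.

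In total the WT and LKO values (CPM) of 26 of the 40 tested members did not overlap (65%), against 54.0% of all genes. Of these, 14 were higher and 12 lower in LKO mice. The 5 members without overlap that were not called were *Cyp2a12*, *Cyp2d9*, *Cyp2d11*, *Cyp2e1* and *Cyp3a11*. For *Cyp2a12* the gap was very narrow, with WT mouse 2 at 406.385 CPM and LKO mouse 2 at 405.895 CPM. The plot of fold changes under both scalings shows each tested member on both scales.

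**Figure D4:**
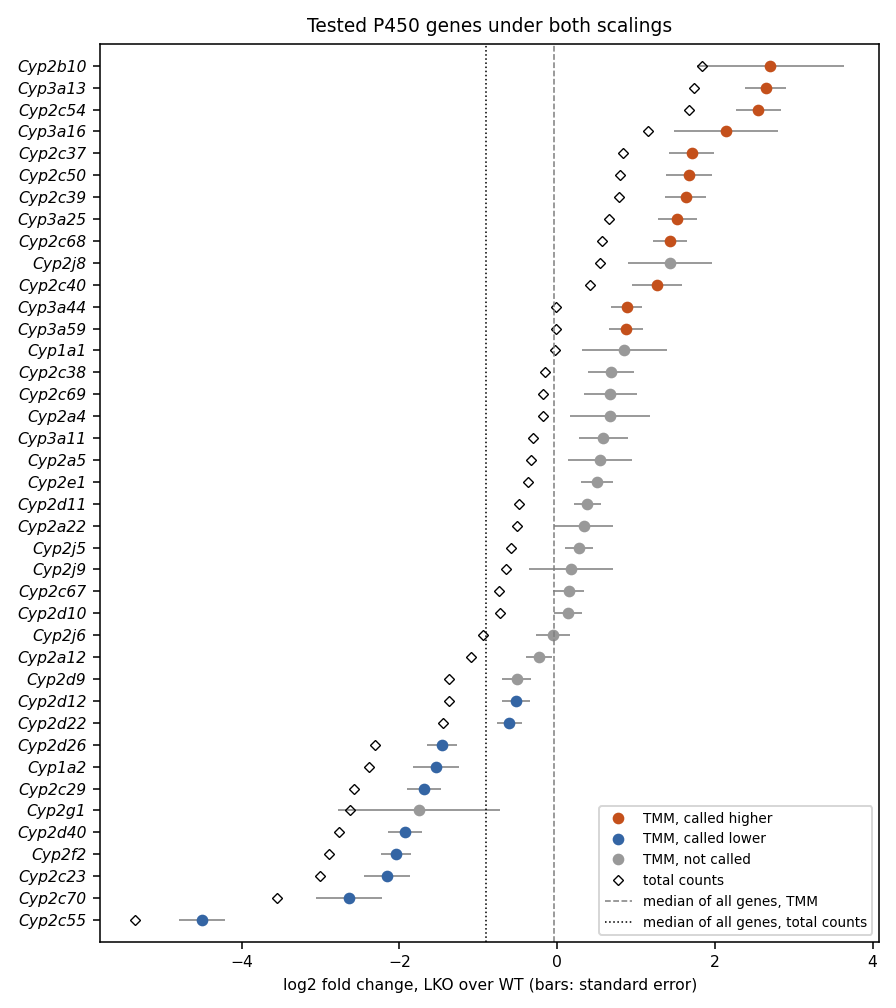
Log2 fold change of LKO over WT of the 40 tested members with TMM scaling (filled circles, with SE, coloured by call) and with total counts (open diamonds), with vertical lines at the median of all genes under each (−0.04 and −0.90). The diamonds lie to the left of the circles for every member, and the members keep nearly the same order, from *Cyp2c55* (−4.50) to *Cyp2b10* (2.70).

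Of the receptors and transcription factors known to drive these genes, 4 of 12 were called higher and none lower with TMM. Their median log2 fold change was 0.27, against −0.04 for all genes. With total counts none was called higher and 5 lower. For this list and those below, the shares of all genes with TMM were 19.6% higher and 20.5% lower. With total counts the shares of all genes were 6.26% higher and 51.4% lower. *Ahr* was at 23.3, 29.2 and 36.7 CPM in WT mice against 43.4, 65.7 and 65.7 CPM in LKO mice (0.97 ± 0.22, adjusted p = 0.00971). *Nr1i3* was at 29.4, 32.2 and 41.5 CPM in WT mice against 97.9, 80.8 and 39.5 CPM in LKO mice (1.08 ± 0.31, adjusted p = 0.0239), and LKO mouse 3, in which *Cyp2b10* was highest, lay within the WT range of *Nr1i3*. The *Nr1i3* call was lost without WT mouse 1 (0.98, adjusted p = 0.0849), WT mouse 2 (1.01, adjusted p = 0.0851), LKO mouse 1 (0.81, adjusted p = 0.0735) or LKO mouse 2 (1.00, adjusted p = 0.0817). *Nr1i2* was at 45.2, 31.1 and 51.9 CPM in WT mice against 38.8, 41.3 and 43.0 CPM in LKO mice (−0.06 ± 0.19, adjusted p = 0.833), with overlap. *Cebpb* (1.46 ± 0.41, adjusted p = 0.0220) and *Cebpa* (0.60 ± 0.20, adjusted p = 0.0445), the C/EBP genes of liver, were also called higher. Their calls were lost for *Cebpb* without WT mouse 1, LKO mouse 2 or LKO mouse 3 (1.39, 1.44 and 1.30) and for *Cebpa* without WT mouse 1, WT mouse 2 or LKO mouse 1 (0.54, 0.50 and 0.40).

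The electron donors were split, with 2 of 6 genes called higher and 2 lower (median −0.26), and with total counts 1 higher and 4 lower. *Por*, which encodes the oxidoreductase that all microsomal P450s need, was at 73.2, 63.4 and 101 CPM in WT mice against 134, 211 and 359.6 CPM in LKO mice, with no overlap (1.57 ± 0.35, adjusted p = 0.00823, and 0.72 and not called with total counts). *Cyb5a*, the cytochrome b5 of the endoplasmic reticulum, was at 497, 414 and 500.1 CPM in WT mice against 1436, 1912 and 1172 CPM in LKO mice (1.68 ± 0.24, adjusted p = 0.00107). *Cyb5r3*, the reductase of cytochrome b5, was at 184, 133 and 186 CPM in WT mice against 24.3, 21.8 and 17.8 CPM in LKO mice (−2.98 ± 0.20, adjusted p = 0.000182). *Cyb5b*, the cytochrome b5 of the mitochondrial outer membrane, fell likewise (−2.92 ± 0.20, adjusted p = 0.000182). Both reductase and mitochondrial b5 thus fell while *Por* and *Cyb5a* rose.

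Of the genes for haem synthesis and breakdown, 3 of 12 were called higher and 5 lower (median −0.33). Of all genes, 19.6% were called higher and 20.5% lower. With total counts none of the 12 was called higher and 9 lower, against 6.26% and 51.4% of all genes. *Alas1*, the rate-limiting enzyme of haem synthesis, was at 440.4, 329.6 and 377 CPM in WT mice against 144, 219.5 and 90.9 CPM in LKO mice (−1.33 ± 0.30, adjusted p = 0.00910), and *Alad*, the enzyme of the next step, had a log2 fold change of −1.45 ± 0.28, adjusted p = 0.00454. *Uros* was called higher (1.03 ± 0.17, adjusted p = 0.00194).

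Other targets of the same receptors did not move as one. Of other AHR targets, 1 of 5 tested was called higher and 2 lower (median 0.04, and with total counts none higher and 3 lower). *Tiparp* rose (1.46 ± 0.40, adjusted p = 0.0205), a call that was lost without any one of WT mice 1, 2 and 3 or LKO mice 2 and 3 (0.94 to 1.54). *Ugt1a6a* (−1.84 ± 0.15, adjusted p = 0.000243) and *Ugt1a6b* (−1.62 ± 0.16, adjusted p = 0.000345), which encode glucuronosyltransferases of phenols, fell. They share exons in the *Ugt1a* locus, so reads between them are uncertain. Of other CAR and PXR targets, 2 of 11 were called higher and 7 lower (median −0.81, and with total counts 2 higher and 9 lower). *Slco1a4*, an organic anion transporter, was at 23.3, 12.2 and 28.9 CPM in WT mice against 603, 1115 and 1216 CPM in LKO mice. Its log2 fold change (5.51 ± 0.43, adjusted p = 0.000215) was larger than that of any member. *Gadd45b* rose as well (2.65 ± 0.50, adjusted p = 0.00405). *Abcb1a* (−2.47 ± 0.21, adjusted p = 0.000243), *Gstm1* (−1.77 ± 0.17, adjusted p = 0.000333), *Ces2a* (−1.41 ± 0.18, adjusted p = 0.000761) and *Aldh1a1* (−1.19 ± 0.22, adjusted p = 0.00368), which encode a drug efflux pump, a glutathione transferase, a carboxylesterase and a retinal dehydrogenase, fell.

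Among other phase I enzymes, none of 7 was called higher and 3 were called lower (median −0.13, and with total counts none higher and 5 lower). *Aox3*, an aldehyde oxidase, was at 1863, 1723 and 2064 CPM in WT mice against 136, 93.2 and 64.5 CPM in LKO mice (−4.27 ± 0.32, adjusted p = 0.000212), and *Aox1* (−1.58 ± 0.20, adjusted p = 0.000774) and *Ephx1*, the microsomal epoxide hydrolase (−1.89 ± 0.15, adjusted p = 0.000215), fell too.

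**Figure D5:**
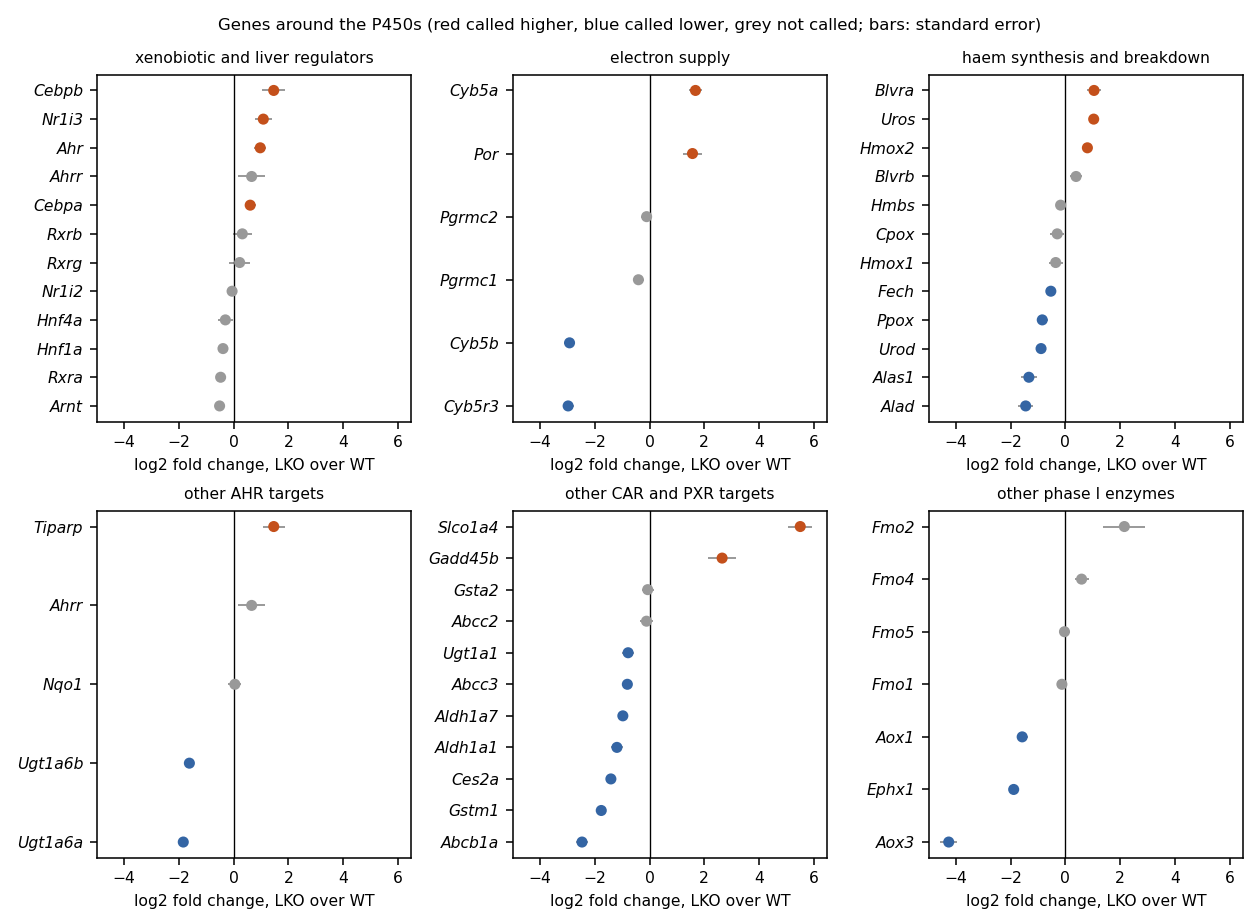
Log2 fold change of LKO over WT (TMM scaling, with SE) for the tested genes of 6 lists around the P450s, with red for genes called higher, blue for genes called lower and grey for genes not called. *Slco1a4* (5.51) lies farthest to the right and *Aox3* (−4.27) farthest to the left, and each panel other than those of the regulators and of other phase I enzymes holds calls in both directions.

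Genes with a known sex difference were looked at in these male mice. Of the 8 female-predominant members, 6 were tested and 4 were called higher with TMM (*Cyp2b10*, *Cyp2c40*, *Cyp3a16* and *Cyp3a44*, median 1.07), none with total counts. Of these, *Cyp3a44* may hold reads of *Cyp3a11*, as given above. The other 2 members of this list, *Cyp2b9* and *Cyp2b13*, were near 0 in LKO mice. Of 5 other female-predominant genes tested, 2 were called higher and 1 lower (median 1.27, and with total counts none higher and 1 lower). The fall was that of *A1bg* (−3.94 ± 0.92, adjusted p = 0.0103). Its level was low, with read counts of 90, 57 and 12 in WT mice against 2, 0 and 4 in LKO mice. *Cyp3a41a* and *Cyp3a41b*, whose symbols end in a letter and which were therefore not members, were the rises (1.27 ± 0.36, adjusted p = 0.0219 and 1.60 ± 0.27, adjusted p = 0.00224), that of *Cyp3a41a* being lost without WT mouse 1, 2 or 3 or LKO mouse 2 (0.90 to 1.30). They are near-identical copies whose reads could be split. *Sult3a1*, a sulfotransferase, was left out of the main test for its zeros, with read counts of 0, 0 and 0 in WT mice against 38, 47 and 25 in LKO mice. Against a floor of 3 counts over the group it was at least 60.4-fold higher in LKO mice after TMM scaling. With no filter on low counts, edgeR's quasi-likelihood test called it higher (adjusted p = 0.000524). Of 8 other male-predominant genes, 1 was called higher and 4 lower (median −0.79, and with total counts none higher and 6 lower). *Hsd3b5*, a steroid dehydrogenase of male liver, was at 54.4, 85.0 and 99.8 CPM in WT mice against 3.02, 2.06 and 2.21 CPM in LKO mice (−5.03 ± 0.29, adjusted p = 0.000107), and *Elovl3* fell as well (−3.34 ± 0.70, adjusted p = 0.00634). Genes of both kinds thus moved in both directions.

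P450 genes are known to differ along the lobule, most of them being higher around the central vein. Of 8 other pericentral genes, 2 were called higher and none lower (*Oat* 2.20 and *Slc1a2* 1.45, median 0.50, and with total counts 2 higher and 1 lower). Of 8 other periportal genes, 4 were called higher and 1 lower (median 0.81, and with total counts 1 higher and 2 lower), among them *Cps1* (1.71). In neither list were all genes called.

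Markers of the cell types of liver moved with genotype, and their part in the P450 results was not tested. Of all genes, 19.6% were called higher and 20.5% lower with TMM, and 6.26% and 51.4% with total counts. Of 7 hepatocyte markers measured, 4 were called higher and 1, *Ttr*, lower (means of 2101 CPM in WT mice and 825 CPM in LKO mice). The summed level of the 7 was 45894 to 48146 CPM in WT mice against 116418 to 136502 CPM in LKO mice. This sum is TMM-scaled, and *Alb* was its largest part (means of 21079 CPM in WT mice and 69388 CPM in LKO mice). In TPM, *Alb* was at 20120 ± 2433 in WT mice and 23133 ± 6843 in LKO mice (means with SD). These TPM values overlapped between genotypes. Of Kupffer cell markers, 4 of 6 were called higher (213 to 333 CPM in WT mice and 394 to 787 CPM in LKO mice), as were 4 of 6 endothelial markers (230 to 273 CPM and 392 to 424 CPM). Of stellate cell markers, 2 of 6 were called higher and 1 lower (279 to 328 CPM and 569 to 824 CPM). Of cholangiocyte markers, none of 4 tested was called higher and 1 was called lower (32.9 to 50.2 CPM and 13.7 to 30.2 CPM). Of leukocyte markers, 2 of 6 were called higher (47.4 to 68.0 CPM and 41.7 to 69.9 CPM). The cholangiocyte marker *Krt7* had more than 1 zero count and was not tested. With total counts the calls were 4 higher and 2 lower for hepatocytes, 2 and 1 for Kupffer cells, 2 and 2 for endothelial cells, 1 and 3 for stellate cells, 0 and 1 for cholangiocytes and 1 and 1 for leukocytes.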

How the data were processed

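Liver RNA of 3 WT and 3 LKO mice was sequenced with 1 library per mouse, and each sample's group is the genotype its labels give. The methods name a library kit that removes rRNA, whereas the labels name a kit that selects mRNA. The submitters' processing notes list bcl2fastq 2.20.0, FastQC 0.11.7, HISAT2 2.1.0, Bowtie2 2.3.4.1 and StringTie 2.1.3b on the mm10 build. The authors deposited a single table of 45777 genes, whose read counts StringTie had derived from coverage and which were left without normalization. The same table holds FPKM, which the authors scaled by gene length and library size, and TPM, which the authors scaled to the same sum in each mouse. FPKM entered only the relative gene length.

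Following the study's methods, a gene entered the tests if at most 1 of the 6 mice had a zero count, which gave 18636 genes. Counts were scaled by TMM and tested with edgeR 4.0.16 (quasi-likelihood test, two-sided, R 4.3.3) and p-values were adjusted after Benjamini and Hochberg across these genes. The study used exactTest of edgeR, which was run as an alternative beside DESeq2 1.42.0, limma 3.58.1 on log2(TPM + 1), other scalings, filters, thresholds and gene length offsets (lowess, span 0.3), the replicate number as a block and leaving out each mouse. For *Pak4* and the total counts an exact permutation test (two-sided) was used. Coordinates and promoters are those of RefSeq for GRCm38.p6, the assembly that mm10 represents, and coding sequences are those of GENCODE M21, aligned end to end with Biopython 1.88.

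Total counts of 45934632 to 59576437 per mouse set the precision, and n is 3 mice per genotype. All 51 members are named, and values in all 6 mice are given for *Cyp2b10*, *Cyp2e1* and *Cyp3a11*, for the 2 members of each subfamily with the highest mean TPM, and for the 5 largest rises and 5 largest falls among calls. The members, lists and motifs were chosen with earlier results of these data known. Protein sequences were not used here, and a gene of the lists is not reported here. The procedures were tested on simulated counts with known fold changes.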

Additional observations from a re-analysis of the deposited data

How the results depend on the processing

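The precision rests on 3 mice per genotype with a common biological coefficient of variation of 0.254, and power at low levels was not tested. The TMM factors differ between the genotypes by more than any other quantity of depth, and the counts alone do not show which scaling is right. Near-identical members can exchange reads, and levels near 0 (*Cyp2b9*, *Cyp2b13* and *Cyp2c65* in LKO mice) carry counting error beside the spread between mice.

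Over the alternatives, 718 values of single members kept their direction and their side of the threshold, 46 were no longer called, 27 became called and 45 changed sign. With total counts in place of TMM, 6 members were called higher and 18 lower, and 1167 genes higher and 9575 lower. With limma on log2(TPM + 1) it was 2 members higher and 23 lower, and 453 genes higher and 13322 lower. At an adjusted p under 0.01, 2262 genes were called higher and 2112 lower, and at a fold change of at least 2, 2185 genes were called lower. Leaving out each mouse gave 9 to 13 members higher, 8 to 11 members lower, 2757 to 3436 genes higher and 2858 to 3794 genes lower. *Pak4* was at −1.54 with total counts and at −1.19 with limma, both called, and at −1.08 to −0.50 when each mouse was left out. The cause was not tested, except that total counts and TPM change the scale itself, the stricter thresholds the rule and each left-out mouse the number of samples.

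The following log2 fold changes changed sign. With total counts they were −0.026 for *Cyp1a1*, −0.18 for *Cyp2a4*, −0.33 for *Cyp2a5*, −0.51 for *Cyp2a22*, −0.16 for *Cyp2c38*, −0.74 for *Cyp2c67*, −0.18 for *Cyp2c69*, −0.72 for *Cyp2d10*, −0.49 for *Cyp2d11*, −0.37 for *Cyp2e1*, −0.59 for *Cyp2j5*, −0.65 for *Cyp2j9*, −0.31 for *Cyp3a11*, −0.013 for *Cyp3a44*, −0.017 for *Cyp3a59* and −0.23 for *Cebpa*. With limma on log2(TPM + 1) they were −0.14 for *Cyp1a1*, −0.54 for *Cyp2a4*, −1.12 for *Cyp2a5*, −0.65 for *Cyp2a22*, −0.87 for *Cyp2c38*, −0.31 for *Cyp2c40*, −1.41 for *Cyp2c67*, −0.11 for *Cyp2c68*, −0.87 for *Cyp2c69*, −1.41 for *Cyp2d10*, −1.07 for *Cyp2d11*, −1.04 for *Cyp2e1*, −1.25 for *Cyp2j5*, −0.0066 for *Cyp2j8*, −1.33 for *Cyp2j9*, −0.99 for *Cyp3a11*, −0.67 for *Cyp3a44*, −0.64 for *Cyp3a59*, −0.51 for *Ahr*, −0.52 for *Nr1i3*, −0.063 for *Por*, −0.43 for *Uros*, −0.18 for *Tiparp*, −0.21 for *Slc1a2*, −0.92 for *Cebpa*, −0.13 for *Cyp3a41a* and −0.56 for *Cyp8b1*. With upper-quartile scaling it was 0.021 for *Cyp2j6* and 0.024 for *Nr1i2*. With protein-coding genes alone it was 0.0029 for *Cyp2j6* and 0.0025 for *Nr1i2*. With gene length offsets it was 0.071 for *Cyp2j6* and 0.031 for *Nr1i2*. With the replicate block and gene length offsets it was 0.038 for *Cyp2j6*, −0.046 for *Cyp2j9* and 0.061 for *Nr1i2*. With the replicate block it was −0.037 for *Cyp2j9*. When each mouse was left out, the values ranged from −0.16 to 0.65 for *Cyp2a22*, from −0.028 to 0.29 for *Cyp2c67*, from −0.24 to 0.15 for *Cyp2j6*, from −0.44 to 0.62 for *Cyp2j9* and from −0.27 to 0.088 for *Nr1i2*.

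Same-numbered mice are different animals, and their deviations from the group means correlated at 0.000233, −0.0390 and −0.0557 across genes, so that the numbers do not pair the samples. With the replicate number as a block, 13 members were called higher and 9 lower, of which 11 and 9 were shared with the fit without it, and 3129 genes were called higher and 3302 lower. No mouse correlated best with its own number.

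When shares of the pool of members were taken over read counts, 6 of 20 subfamily shares (10 in each genotype) moved by more than 1 SD between mice. The *Cyp2j* share went to 4.105% in WT mice and 3.41% in LKO mice, the *Cyp2e* share to 10.6% in both, the *Cyp2d* share to 9.33% in WT mice and the *Cyp3a* share to 54.1% in WT mice. *Cyp3a11* was at 48.5% in WT mice and 50.4% in LKO mice.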

Other observations

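Among the 48 P450 genes outside these subfamilies, 31 were tested, and 11 were called higher and 7 lower in LKO mice. Of all genes, 19.6% were called higher and 20.5% lower. The median log2 fold change of these P450 genes was 0.18. With total counts 8 of them were called higher and 16 lower, against 6.26% and 51.4% of all genes. The genes named here were chosen after their values were seen. *Cyp7a1*, the rate-limiting enzyme of bile acid synthesis, was at 156, 149 and 194 CPM in WT mice against 839.5, 734 and 600.4 CPM in LKO mice (2.12 ± 0.20, adjusted p = 0.000315). It was called higher with total counts as well (1.27). *Cyp39a1* (1.98 ± 0.37, adjusted p = 0.00393), which hydroxylates oxysterols on the way to bile acids, and *Cyp17a1* (1.96 ± 0.39, adjusted p = 0.00531), an enzyme of steroid synthesis, rose too. *Cyp8b1*, which sets how much cholic acid is made, stood at 0.91 ± 0.30, adjusted p = 0.0381, a call that was lost with total counts (0.08) and when any one of WT mice 1 and 2 or LKO mice 1, 2 and 3 was left out (0.61 to 1.03). *Cyp2c70*, the muricholic acid enzyme among the members, fell as given above.

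*Cyp51*, the sterol demethylase of cholesterol synthesis, was at 126, 116 and 147 CPM in WT mice against 19.1, 19.7 and 17.7 CPM in LKO mice (−2.78 ± 0.16, adjusted p = 0.000103), with no overlap. *Cyp4f14* (−2.74 ± 0.27, adjusted p = 0.000333) and *Cyp4v3* (−2.32 ± 0.22, adjusted p = 0.000315), both fatty acid hydroxylases, and *Cyp2u1* (−2.51 ± 0.38, adjusted p = 0.00152) fell likewise. *Cyp1b1*, an AHR target that liver makes little of, was at 0.550, 0.535 and 0.514 CPM in WT mice against 2.16, 2.87 and 4.78 CPM in LKO mice (2.61 ± 0.35, adjusted p = 0.000924), whereas the AHR target *Cyp1a2* fell.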
